A study of Mus musculus with 12 samples.

Results

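The genes described here encode the enzymes that add and remove acetyl and methyl marks on histones and methyl groups on DNA, together with core partners of these enzymes and excluding the histone deacetylases. They were chosen by name: 9 acetyltransferases, 4 Polycomb genes and 6 genes of the histone H3 lysine 4 methyltransferase families. The others were 5 genes for lysine 36 or lysine 79 methyltransferases, 8 demethylases, 5 genes of DNA methylation and 2 sirtuins. All 39 were among the 17340 genes counted. RNA-seq libraries were made from KPC cells, which are mouse pancreatic cancer cells labelled with the strain C57BL/6 as their genotype. The cells were grown in DMEM and exposed for 48 h to 1 µM of JQ1, I-BET151 or ITF2357, or left as controls. The labels call the control untreated in one field and PBS in another, and all 4 groups shared the same cells and medium. Each group had 3 libraries, so there were 12 in all.

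JQ1 and I-BET151 inhibit the BET proteins, which bind acetylated histone tails through bromodomains and help transcription to start and elongate. JQ1 is a thienotriazolodiazepine, whereas I-BET151 is built on a quinoline with a dimethylisoxazole. ITF2357, also called givinostat, inhibits histone deacetylases, the enzymes that take acetyl groups off histones. The genes below stand around that step. Acetyltransferases write the mark that BET proteins read, Polycomb and the other methyltransferases write methyl marks tied to silent or active genes, and demethylases remove these. DNMT1 copies DNA methylation onto the new strand after replication with the help of UHRF1, and TET enzymes oxidise the methyl group as a step towards its loss. Mutations of several of these genes, among them those of the KMT2 family, are known from pancreatic cancer.

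Library totals ranged from 21 to 31.2 M counts. Libraries of 1 group correlated across genes with r from 0.9893 to 0.9939. Their counts differed beyond sampling noise in every pair (chi-square divided by its degrees of freedom 1.61 to 5.17). Separate cultures are not named in the labels, and the p-values therefore describe the spread of these samples alone, which may be technical. Keratin and E-cadherin transcripts of epithelial cells were abundant in control (840 ± 8.6 counts per 1 M library counts, CPM, for Krt18 and 780 ± 8.28 for Cdh1, SD, n = 3), whereas Epcam stood at 1.75 CPM and Cldn4 at 0.315 CPM. Of 8 fibroblast markers 3 were analysed, with a summed level from 21.85 to 22.75 CPM in control and from 6.753 to 7.718 CPM with I-BET151. All 7 epithelial markers together summed to 3128 to 3229 CPM in control and 4602 to 4655 CPM with I-BET151. They summed to 4916 to 5130 CPM with ITF2357. Among ductal markers, Muc1 stood at 70.3 ± 0.804 CPM in control (SD, n = 3). It was called higher with each compound and reached 755 ± 22.3 CPM with I-BET151, 199 ± 6.98 CPM with ITF2357 and 81.8 ± 3.83 CPM with JQ1. Sox9 stood at 59.8 ± 2.59 CPM in control and was called higher with I-BET151 (65.3 ± 1.57 CPM) and lower with ITF2357 (52.4 ± 2.18 CPM) and JQ1 (45.2 ± 1.27 CPM). Onecut1 was below 1 CPM in every library. The analysed acinar (2), endothelial (2) and leukocyte (1) markers summed, for each type, to at most 8.106 CPM in any library. The part of these shifts in the results below was not tested.

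In control cells the order of the enzymes per kilobase of gene length (RPKM) was led by Kmt2d at 31.7 ± 0.787 (SD, n = 3), which encodes a large enhancer methyltransferase. Kdm6b, for a demethylase that erases the Polycomb mark on lysine 27, stood at 28.7 ± 0.409 and Kmt2a, the MLL gene, at 28.2 ± 0.506. Kdm6b and Kmt2a differed by about 1 SD. The acetyltransferase genes Crebbp and Ep300 came next at 26 ± 0.618 and 24.5 ± 0.0954 RPKM. The lowest levels were those of Kat6b at 4.42 ± 0.0398, Kdm2b at 3.51 ± 0.104 and Sirt1 at 2.61 ± 0.313 RPKM. All 39 genes passed the filter on low counts, which removed 0 of the 17340 genes.

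Each compound changed many of these genes, mostly by little. With I-BET151, 28 of the 39 passed an adjusted p under 0.05 (20 higher and 8 lower, 71.8%), against 63.1% of all genes. ITF2357 changed 27 (7 higher and 20 lower, 69.2%), against 54% of all genes, and JQ1 changed 19 (8 higher and 11 lower, 48.7%), against 24.8% of all genes. By direction, 30.5% of all genes rose and 32.6% fell with I-BET151, 27.6% rose and 26.4% fell with ITF2357, and 12.5% rose and 12.3% fell with JQ1. The counts for classes and related lists below are to be read beside these shares. The median size of the log2 fold change over the 39 genes was 0.0931 for JQ1, 0.205 for I-BET151 and 0.145 for ITF2357, where that over all genes was 0.147, 0.392 and 0.287. With signs kept, the medians were -0.00154, 0.105 and -0.0885, where all genes had 0.00295, -0.0254 and -0.0122. Changes of at least 1.5-fold were made in 8 of the 39 genes by I-BET151 (29.9% of all genes), in 1 by ITF2357 (18.7%) and in 0 by JQ1 (2.36%), whose largest change was 0.32 on the log2 scale. The 8 were Kat2b, Kmt2c, Kmt2e, Kat6b and Sirt1, which rose, and Uhrf1, Dnmt1 and Kat2a, which fell.

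The split by direction with I-BET151 depended on how libraries were scaled. With TMM factors 20 genes were higher and 8 lower. With upper quartile factors 19 were higher and 12 lower, and with library totals 12 were higher and 19 lower. Under library totals the median over all genes shifted by -0.161 (log2) in this comparison, and the 20 to 8 split is therefore relative to TMM scaling. A single RNA, Malat1, took 7.26% of the counts with I-BET151 and 2.65% in control, and its part in this shift was not tested. The splits of JQ1 and of ITF2357 moved by less than 10 percentage points under each scaling. All levels are shares of a library, so less RNA per cell cannot be seen, and a loss of cells of 1 kind cannot be told apart from less RNA in each cell.

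**Figure D1:**
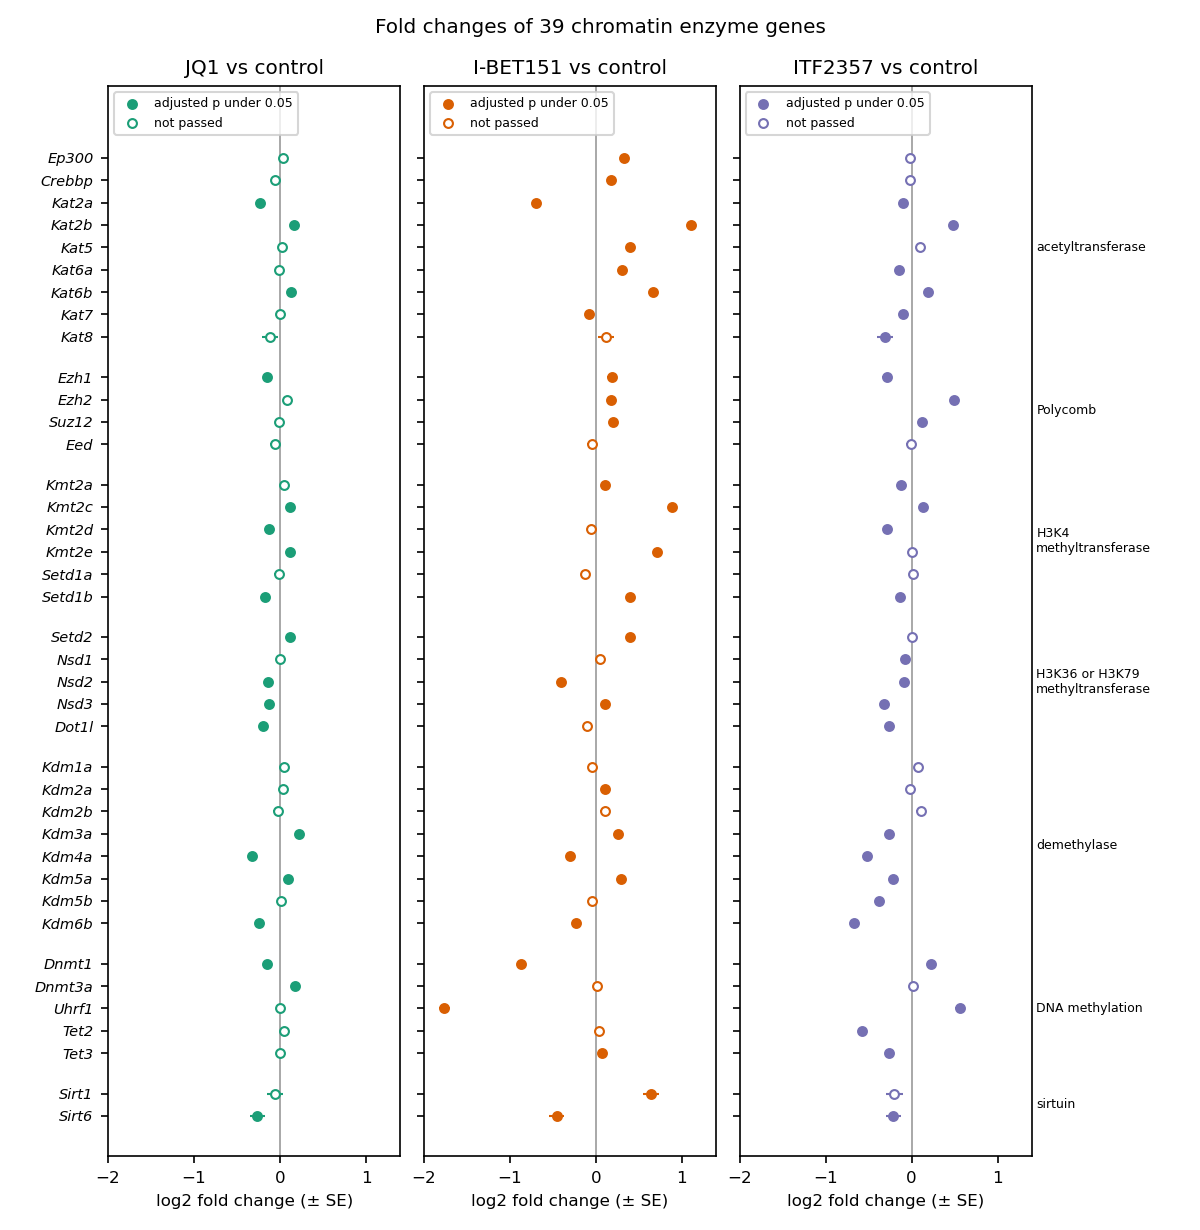
Log2 fold change against control (x axis, ± SE) of the 39 genes (y axis, grouped by role) for JQ1, I-BET151 and ITF2357, with filled points for an adjusted p under 0.05. The points of JQ1 lie between -0.32 and 0.22, whereas I-BET151 reaches from -1.76 for Uhrf1 to 1.1 for Kat2b.

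**Figure D2:**
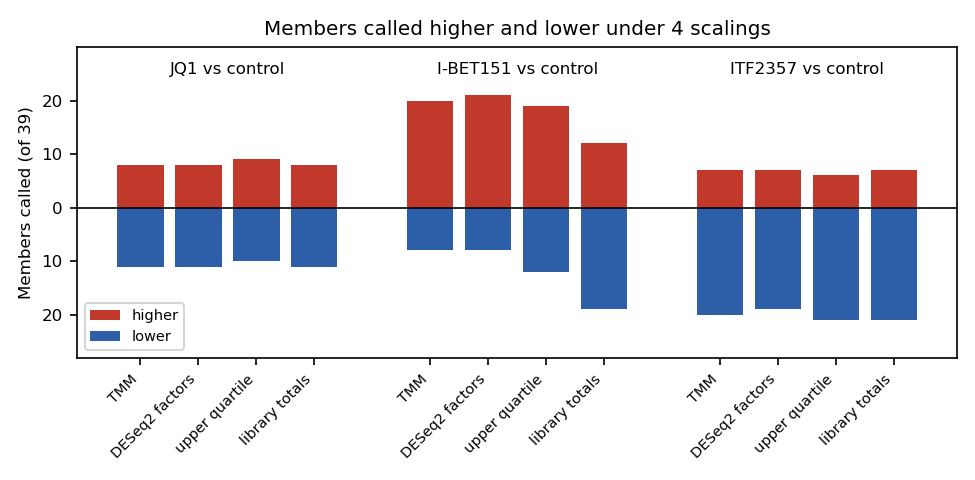
Number of the 39 genes called higher (upward bars) and lower (downward bars) in each comparison against control under TMM factors, DESeq2 size factors, upper quartile factors and library totals. With I-BET151 the bars turn from 20 higher and 8 lower with TMM to 12 higher and 19 lower with library totals.

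Uhrf1 and Dnmt1, the genes of DNA methylation maintenance, fell most with I-BET151 and rose with ITF2357. Uhrf1 (chr17:56303321-56323486, plus strand, mm10) encodes the protein that recognises half-methylated DNA and recruits DNMT1. The 250 bases before its outer RefSeq start (chr17:56303087-56303336, plus strand, GRCm38.p6) are shown because this gene had the largest change of the 39, and those of Kat2a (chr11:100712468-100712717, minus strand), because it fell most among the acetyltransferases. Capitals mark TTCCCGC, 1 of the E2F-type core motifs searched for on both strands. The other was TTGGCGC. The Uhrf1 window holds 1 match, 48 bases before the start, and the Kat2a window holds 0, so no matches overlap in these windows. The window of the other Uhrf1 promoter in RefSeq (chr17:56304063-56304312, plus strand), not shown, holds 0.
Uhrf1: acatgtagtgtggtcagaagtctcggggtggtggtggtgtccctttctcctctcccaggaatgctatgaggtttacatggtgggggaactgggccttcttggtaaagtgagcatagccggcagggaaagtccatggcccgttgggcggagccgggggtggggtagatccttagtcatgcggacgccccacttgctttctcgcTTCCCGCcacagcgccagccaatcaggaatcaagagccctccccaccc
Kat2a: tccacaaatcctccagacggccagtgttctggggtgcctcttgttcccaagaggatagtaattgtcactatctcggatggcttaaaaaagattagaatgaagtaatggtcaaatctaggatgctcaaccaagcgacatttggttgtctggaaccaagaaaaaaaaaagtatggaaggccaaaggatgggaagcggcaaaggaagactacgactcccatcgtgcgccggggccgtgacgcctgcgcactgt
Of the 39 genes, 30 had a promoter in the RefSeq table, 45 promoters in all. A match was held by 3 of the 45 (6.67%), 1 each of Uhrf1, Suz12 and Sirt6. Among 32851 mouse promoters 1845 (5.62%) held one, so the share among these genes was near that of all promoters.

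Uhrf1 stood at 57.3, 58 and 57.2 CPM in the control libraries, at 55.8, 58 and 59.1 with JQ1, at 16.7, 15.2 and 19 with I-BET151, and at 80.3, 84.3 and 89.4 with ITF2357. The I-BET151 libraries lay below, and the ITF2357 libraries above, all others, whereas JQ1 overlapped the control. With I-BET151 Uhrf1 was 3.39-fold lower (log2 fold change -1.76 ± 0.06, SE, adjusted p = 4.11e-23), and with ITF2357 it was 1.47-fold higher (0.56 ± 0.05, adjusted p = 5.78e-12). The 95% interval of its JQ1 change ran from -0.10 to 0.10 on the log2 scale.

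Dnmt1 (chr9:20907209-20959888, minus strand), the maintenance methyltransferase gene, stood at 123, 122 and 121 CPM in control, 108, 110 and 111 with JQ1, 62.4, 66.1 and 71.4 with I-BET151 and 144, 142 and 142 with ITF2357. No pair of groups overlapped. It fell by 0.87 ± 0.04 with I-BET151 (log2, SE, adjusted p = 2.88e-20) and by 0.15 ± 0.04 with JQ1, and rose by 0.23 ± 0.03 with ITF2357. Dnmt3a, which encodes a methyltransferase that sets new DNA methylation, was at 123, 121 and 119 CPM in control and 134, 136 and 139 with JQ1. It rose by 0.17 ± 0.03 with JQ1, where the libraries lay above all controls. With I-BET151 (121, 126 and 121 CPM) and ITF2357 (124, 122 and 120 CPM) Dnmt3a overlapped the control and did not pass. Library totals, however, called it lower with I-BET151 (adjusted p = 0.000185).

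With I-BET151 and with ITF2357 the summed level of proliferation markers lay on the same side of control as Uhrf1 and Dnmt1, whereas with JQ1, where Dnmt1 was called lower, its range overlapped control. The summed level of 22 such genes was 963.2 to 969.5 CPM in control, 964.2 to 972.3 with JQ1, 464.8 to 479.1 with I-BET151 and 1777 to 1838 with ITF2357. With I-BET151 22 of the 22 were called lower. With ITF2357 16 were called higher and 1 lower, and with JQ1 5 higher and 4 lower. Their part in the changes of Uhrf1, Dnmt1 and Ezh2 was not tested. The related list of 17 DNA methylation partners held 4 higher and 9 lower genes with I-BET151, among them Hells, a remodeller needed for methylation, which fell by 1.18 ± 0.04 on the log2 scale. With ITF2357 6 were higher and 5 lower. Pcna, the replication clamp that also recruits DNMT1 and is 1 of the 22 proliferation markers, rose by 0.54 ± 0.05. With JQ1 1 was higher and 3 were lower, and Gadd45a, a growth arrest gene tied to DNA demethylation, fell by 0.64 ± 0.05. Gadd45a also fell with I-BET151, by 1.09 ± 0.06, and with ITF2357, by 1.01 ± 0.05. Gadd45b, in the same list, went the other way. It rose by 1.17 ± 0.09 with I-BET151 and by 0.85 ± 0.09 with ITF2357, and did not pass with JQ1.

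**Figure D3:**
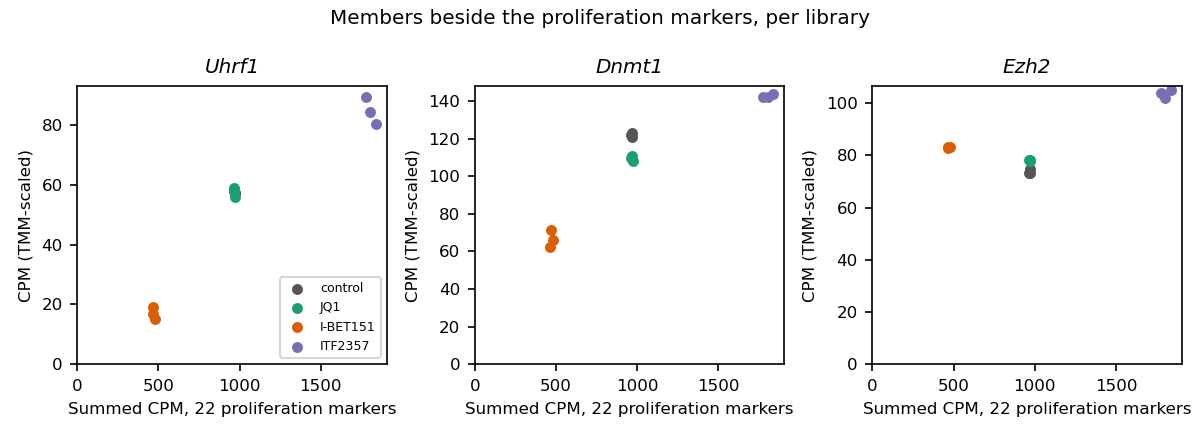
CPM of Uhrf1, Dnmt1 and Ezh2 (y axes) against the summed CPM of 22 proliferation markers (x axis), with 1 point for each of the 12 libraries. The I-BET151 libraries lie near 470 and the ITF2357 libraries near 1800 on the x axis, with Uhrf1 from 15.2 to 19 CPM and from 80.3 to 89.4 CPM, while Ezh2 in I-BET151 libraries (83 to 83.2 CPM) lies above the control.

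Tet2, the gene of a dioxygenase that oxidises methylated cytosine, fell with ITF2357. It stood at 266, 265 and 262 CPM in control, at 275, 269 and 272 with JQ1, at 266, 274 and 269 with I-BET151 and at 176, 179 and 178 with ITF2357. The ITF2357 libraries lay below all others (-0.57 ± 0.03, SE, adjusted p = 1.22e-19). Tet2 did not pass with either BET inhibitor under TMM scaling, and with library totals it was called lower with I-BET151 (adjusted p = 3.43e-05). Its relative Tet3 was at 183, 187 and 178 CPM in control, 183, 188 and 180 with JQ1, 196, 194 and 187 with I-BET151 and 154, 148 and 154 with ITF2357. It fell by 0.26 ± 0.03 with ITF2357, and all 3 libraries were below the control. Tet3 rose by 0.07 ± 0.03 with I-BET151, but the direction reversed to -0.09 with library totals, and the call was lost without control library 1 or 3 or I-BET151 library 1 or 2 (adjusted p from 0.0546 to 0.15).

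**Figure D4:**
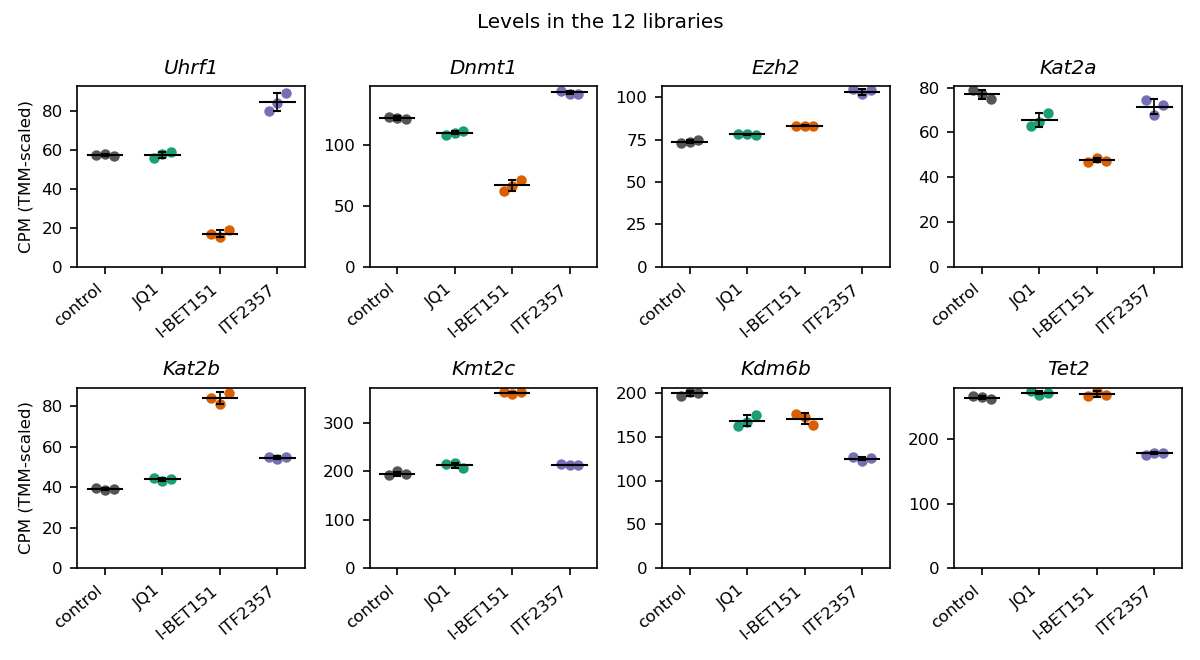
CPM on TMM-scaled library sizes (y axes, starting at 0) of 8 genes in the 12 libraries, with 1 point per library and black lines for the mean ± SD of 3 libraries per group. Uhrf1 and Dnmt1 are lowest with I-BET151, Kdm6b and Tet2 are lowest with ITF2357, and Kat2b and Kmt2c are highest with I-BET151.

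Among the acetyltransferases the paralogs Kat2a and Kat2b moved in opposite directions. KAT2A (GCN5) and KAT2B (PCAF) acetylate histone H3 within SAGA-type complexes. Kat2a (chr11:100704746-100712465, minus strand) stood at 79, 77.4 and 75 CPM in control, 62.9, 64.7 and 68.8 with JQ1, 47, 48.6 and 47.1 with I-BET151 and 74.6, 67.8 and 72.4 with ITF2357. Every treated library lay below every control library. It fell by 0.70 ± 0.05 with I-BET151 (log2, SE, adjusted p = 1.8e-15), by 0.24 ± 0.04 with JQ1 and by 0.11 ± 0.04 with ITF2357. The last call was lost without control library 1 or 2 or ITF2357 library 2 (adjusted p from 0.0798 to 0.185) and with DESeq2 (adjusted p = 0.0819).

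Kat2b (chr17:53566861-53672720, plus strand) stood at 39.4, 38.6 and 39.2 CPM in control, 44.6, 43 and 43.8 with JQ1, 84.2, 81.1 and 86.6 with I-BET151 and 55, 53.8 and 55 with ITF2357. No group overlapped another. It was 2.15-fold higher with I-BET151 (1.1 ± 0.04, adjusted p = 1.33e-21), rose by 0.48 ± 0.04 with ITF2357 and by 0.17 ± 0.04 with JQ1. The ratio of Kat2a to Kat2b per unit length was 2.76 ± 0.0769 (SD, n = 3) in control, 1.83 ± 0.0651 with ITF2357, 2.09 ± 0.114 with JQ1 and 0.793 ± 0.0404 with I-BET151. Kat2b was thus the more abundant of the pair with I-BET151, and only in that group.

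Ep300 and Crebbp, for the p300 and CBP enzymes that acetylate enhancers, rose with I-BET151 and passed with neither of the other compounds. Ep300 stood at 349, 351 and 348 CPM in control, 352, 365 and 356 with JQ1, 438, 443 and 438 with I-BET151 and 342, 338 and 354 with ITF2357. The I-BET151 libraries were above all others (0.33 ± 0.02, SE, adjusted p = 4.92e-14). Crebbp was at 342, 358 and 354 CPM in control and 406, 389 and 394 with I-BET151, a rise of 0.17 ± 0.03 that was not called with library totals (adjusted p = 0.713). With JQ1 (329, 337 and 344 CPM) and ITF2357 (354, 336 and 354 CPM) the Crebbp libraries overlapped the control. The pair stayed near equal per length, with a ratio of Ep300 to Crebbp from 0.939 with ITF2357 to 1.05 with I-BET151.

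Kat6a and Kat6b encode the MYST enzymes MOZ and MORF. Kat6a stood at 204, 209 and 196 CPM in control, 205, 196 and 204 with JQ1, 253, 249 and 252 with I-BET151 and 186, 181 and 184 with ITF2357. It rose by 0.31 ± 0.03 (log2, SE) with I-BET151 and fell by 0.15 ± 0.03 with ITF2357, with no overlap with control in either. Kat6b was at 73.6, 74.7 and 74.8 CPM in control, 79.9, 81.1 and 83.1 with JQ1, 119, 121 and 114 with I-BET151 and 87, 85.4 and 82.8 with ITF2357. It rose with all 3 compounds, by 0.66 ± 0.04 with I-BET151, 0.19 ± 0.04 with ITF2357 and 0.13 ± 0.04 with JQ1, where the call was lost without JQ1 library 3 (adjusted p = 0.0543).

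Of the other MYST genes, Kat5, for the TIP60 enzyme, rose by 0.40 ± 0.05 with I-BET151, from a mean of 29.8 to 39.3 CPM. Kat7, for the HBO1 enzyme, fell by 0.08 ± 0.03 with I-BET151 and by 0.09 ± 0.03 with ITF2357 from 119 CPM. The first call was lost without control library 3 or I-BET151 library 2 or 3 (adjusted p from 0.0595 to 0.138) and the second without control library 3 (adjusted p = 0.0636). Kat8, for the MOF enzyme, fell by 0.31 ± 0.09 with ITF2357, from 13.6 to 10.9 CPM, and did not pass with the others. In all, 6 of the 9 acetyltransferase genes rose and 2 fell with I-BET151 (5 and 2 with library totals), 2 rose and 4 fell with ITF2357, and 2 rose and 1 fell with JQ1. Their median log2 fold change with I-BET151 was 0.308. Of 41 other genes of acetyltransferase complexes 19 rose and 16 fell with I-BET151, 7 rose and 22 fell with ITF2357, and 1 rose and 14 fell with JQ1, with medians of 0.0799, -0.104 and -0.0816. Ruvbl2 and Ruvbl1, ATPase subunits of the TIP60 complex, were 28.4 and 15.9 CPM with I-BET151 and 67.7 and 32.7 in control. They fell by 1.25 ± 0.06 and 1.05 ± 0.07 on the log2 scale. Kansl3, a partner of KAT8, fell by 0.63 ± 0.04 with ITF2357.

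The Polycomb genes encode the core of PRC2, which trimethylates lysine 27 of histone H3. Ezh2, its main catalytic subunit, stood at 73.1, 73.4 and 74.8 CPM in control, 78.4, 78.1 and 77.9 with JQ1, 83.2, 83.2 and 83 with I-BET151 and 105, 102 and 104 with ITF2357. It was 1.4-fold higher with ITF2357 (0.49 ± 0.03, SE, adjusted p = 2.35e-14) and rose by 0.17 ± 0.04 with I-BET151, a call lost with library totals (adjusted p = 0.781). In JQ1 the libraries did not overlap the control, yet the test did not pass under TMM scaling (adjusted p = 0.0842) and passed with upper quartile factors (adjusted p = 0.0261). Under TMM scaling, Ezh2 rose with I-BET151 while the 22 proliferation markers fell.

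Ezh1, the catalytic paralog more typical of resting cells, stood at 46.3, 45.3 and 46.9 CPM in control, 38.2, 43.8 and 43.3 with JQ1, 51.7, 52.8 and 52.7 with I-BET151 and 38.2, 38.4 and 36.7 with ITF2357. All groups lay apart from the control. It fell by 0.29 ± 0.05 (log2, SE) with ITF2357 and by 0.15 ± 0.05 with JQ1. The JQ1 call was lost without control library 1 or 3 or JQ1 library 1 (adjusted p from 0.0743 to 0.293), with upper quartile factors and with DESeq2. With I-BET151 Ezh1 rose by 0.18 ± 0.05, which library totals did not call (adjusted p = 0.716). The ratio of Ezh1 to Ezh2 per length was 0.562 ± 0.00773 (SD, n = 3) in control and 0.328 ± 0.0106 with ITF2357.

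Suz12, the scaffold of PRC2, rose by 0.20 ± 0.04 with I-BET151, from a mean of 115 to 133 CPM, a call lost with library totals (adjusted p = 0.347). It rose by 0.12 ± 0.04 with ITF2357, which was lost without control library 3 or ITF2357 library 2 (adjusted p 0.111 and 0.135) and with upper quartile factors (adjusted p = 0.0787). Eed, which binds the methyl mark, ranged from 27.4 to 28.5 CPM in the group means and passed with no compound under TMM, while library totals called it lower with I-BET151 (adjusted p = 0.00398). A related list of 28 genes held PRC1 genes, PRC2 accessory genes and Kdm6a, which encodes a demethylase and not a Polycomb subunit. Of the 28, 13 rose and 10 fell with I-BET151, 5 rose and 12 fell with ITF2357, and 5 rose and 6 fell with JQ1. Kdm6a was among those that rose with JQ1 (0.20 ± 0.04) and with ITF2357 (0.12 ± 0.04). Phc3, a PRC1 subunit, rose by 0.79 ± 0.03 with I-BET151. Phf19, which guides PRC2 to chromatin, fell by 2.55 ± 0.31 with I-BET151 from a low level of 2.32 CPM.

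Of the genes of the lysine 4 methyltransferase families, Kmt2c and Kmt2e rose with I-BET151 by over 1.5-fold. KMT2C and KMT2D place the monomethyl mark at enhancers. Kmt2c stood at 192, 200 and 195 CPM in control, 215, 217 and 206 with JQ1, 363, 360 and 364 with I-BET151 and 214, 213 and 213 with ITF2357. Every treated library was above every control library. The gene was 1.85-fold higher with I-BET151 (0.89 ± 0.03, SE, adjusted p = 5.78e-25) and rose by 0.12 ± 0.03 with JQ1 and 0.13 ± 0.03 with ITF2357.

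Kmt2d stood at 613, 637 and 643 CPM in control, 568, 582 and 585 with JQ1, 609, 613 and 606 with I-BET151 and 514, 482 and 549 with ITF2357. It fell by 0.29 ± 0.03 with ITF2357 and by 0.13 ± 0.03 with JQ1, and both groups lay below the control. Kmt2d did not pass with I-BET151 in the main fit (TMM factors, all 12 libraries, adjusted p = 0.135) and was called lower with upper quartile factors (adjusted p = 0.0251). The ratio of Kmt2c to Kmt2d per length was 0.304 ± 0.00586 (SD, n = 3) in control, 0.361 ± 0.0133 with JQ1, 0.408 ± 0.026 with ITF2357 and 0.584 ± 0.00582 with I-BET151, so Kmt2d remained the more abundant in each group.

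Kmt2e, for a SET domain relative of the MLL enzymes, stood at 210, 216 and 217 CPM in control, 230, 227 and 242 with JQ1, 355, 349 and 348 with I-BET151 and 214, 217 and 213 with ITF2357. It rose 1.64-fold with I-BET151 (0.71 ± 0.03, adjusted p = 6.9e-22) and by 0.12 ± 0.03 with JQ1, while ITF2357 overlapped the control. Kmt2a was at 461, 478 and 472 CPM in control, 473, 491 and 487 with JQ1, 501, 508 and 507 with I-BET151 and 439, 419 and 434 with ITF2357. It fell by 0.13 ± 0.02 with ITF2357 and rose by 0.10 ± 0.02 with I-BET151, a direction that reversed to -0.06 with library totals.

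SETD1A and SETD1B place the trimethyl mark at promoters. Setd1b stood at 70, 77.5 and 77.2 CPM in control, 64.2, 67.8 and 67.6 with JQ1, 102, 95.1 and 98.5 with I-BET151 and 66.4, 68.4 and 70.6 with ITF2357. It rose by 0.39 ± 0.04 (log2, SE) with I-BET151 and fell by 0.17 ± 0.04 with JQ1. Its fall of 0.13 ± 0.04 with ITF2357, where the libraries overlapped the control, was lost without control library 2 or 3 or ITF2357 library 1 (adjusted p from 0.0594 to 0.069). Setd1a was at 52.1, 51.1 and 51.5 CPM in control, 51.8, 49.9 and 51.5 with JQ1, 47.6, 50 and 44.7 with I-BET151 and 47.8, 51.2 and 58 with ITF2357. It passed with no compound in the main fit, although upper quartile factors called it lower with I-BET151 (adjusted p = 0.023). So did the fit of 2 groups (adjusted p = 0.0268) and fits without I-BET151 library 2 or ITF2357 library 1 or 3 (adjusted p from 0.0225 to 0.04). The ratio of Setd1a to Setd1b per length was 1.23 ± 0.0834 (SD, n = 3) in control and 0.856 ± 0.0677 with I-BET151. In all, 4 of the 6 genes of the lysine 4 methyltransferase families rose and 0 fell with I-BET151. With library totals these counts were 3 and 3, and with upper quartile factors 4 and 2. With ITF2357 1 rose and 3 fell, and with JQ1 2 rose and 2 fell. Of 11 other COMPASS genes analysed, 2 rose and 4 fell with I-BET151, 3 rose and 3 fell with ITF2357, and 1 rose and 1 fell with JQ1. Wdr82, which binds SETD1 proteins, rose by 0.41 ± 0.03 with I-BET151.

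**Figure D5:**
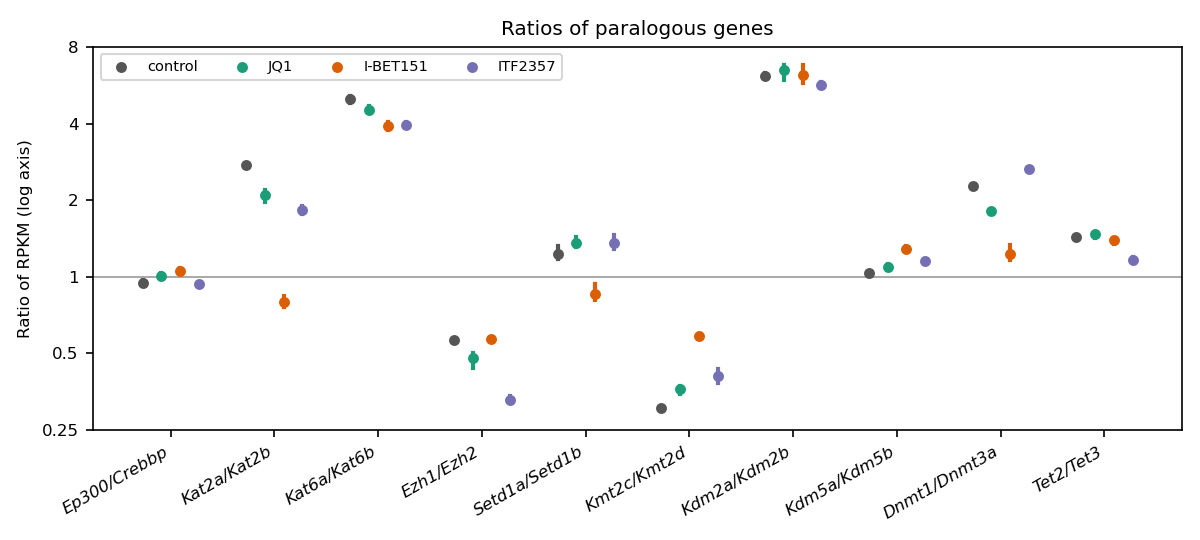
Ratio of RPKM (y axis, log axis) between the genes of 10 paralog pairs (x axis) in each group, with points for the mean and bars from the lowest to the highest of 3 libraries. The Kat2a to Kat2b ratio falls from 2.76 in control to 0.793 with I-BET151, and the Ezh1 to Ezh2 ratio from 0.562 to 0.328 with ITF2357.

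Lysine 36 and lysine 79 methyltransferases mark transcribed gene bodies. Setd2, which places the trimethyl mark on lysine 36, rose by 0.39 ± 0.03 (log2, SE) with I-BET151, from 243 to 319 CPM, and by 0.11 ± 0.03 with JQ1. Nsd2, a dimethyltransferase gene, fell with all 3 compounds, by 0.40 ± 0.03 with I-BET151 (147 to 111 CPM), 0.14 ± 0.03 with JQ1 and 0.09 ± 0.03 with ITF2357. The last call was lost without control library 1 (adjusted p = 0.124). Nsd3 stood at 192, 183 and 183 CPM in control, 169, 166 and 175 with JQ1, 199, 202 and 200 with I-BET151 and 147, 154 and 144 with ITF2357. It fell by 0.33 ± 0.03 with ITF2357 and by 0.13 ± 0.03 with JQ1, and its rise of 0.11 ± 0.03 with I-BET151 reversed to -0.05 with library totals. Nsd1 fell by 0.08 ± 0.02 with ITF2357, from 325 to 307 CPM. With I-BET151 it did not pass in the main fit, was called higher with DESeq2 size factors (adjusted p = 0.0382) and lower with library totals (adjusted p = 0.000155). Dot1l, the lysine 79 methyltransferase gene, fell by 0.26 ± 0.04 with ITF2357 and by 0.19 ± 0.04 with JQ1, from 82.3 to 68.5 and 72.1 CPM, and upper quartile factors also called it lower with I-BET151 (adjusted p = 0.0173). Of these 5 genes 0 rose and 4 fell with ITF2357, 1 rose and 3 fell with JQ1, and 2 rose and 1 fell with I-BET151 (1 and 3 with library totals).

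Among 20 other histone methyltransferase genes 7 rose and 10 fell with I-BET151, 3 rose and 12 fell with ITF2357, and 2 rose and 4 fell with JQ1. Smyd5 fell by 1.43 ± 0.06 with I-BET151 and by 0.30 ± 0.05 with JQ1. Suv39h2, which writes the heterochromatin mark on lysine 9, fell by 1.14 ± 0.14 with I-BET151 from 10.7 CPM. Setd7, a lysine 4 monomethyltransferase gene, rose by 0.36 ± 0.02 with ITF2357. Kmt5a, which monomethylates histone H4, fell by 0.27 ± 0.03 with JQ1. A list of 9 genes held arginine methyltransferase genes and Wdr77, for a partner of PRMT5, which fell by 0.13 ± 0.04 with JQ1. Of these 9 genes 8 fell and 0 rose with JQ1, 6 fell and 1 rose with I-BET151, and 4 fell and 2 rose with ITF2357. Their medians were -0.164, -0.472 and -0.0477. Of all genes 12.3% fell and 12.5% rose with JQ1, 32.6% and 30.5% with I-BET151, and 26.4% and 27.6% with ITF2357. Prmt7 fell with each, by 0.38 ± 0.06, 0.70 ± 0.06 and 0.48 ± 0.06 in that order.

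Demethylase genes fell with ITF2357: 5 of the 8 were lower and 0 higher under each of the 4 scalings. Under TMM 26.4% of all genes were lower and 27.6% higher. The summed level of the 8 was 1130 to 1162 CPM against 1344 to 1381 in control. The median log2 fold change of the 8 was -0.243, where that of all genes was -0.0122. Kdm6b (chr11:69398508-69413675, minus strand) stood at 197, 202 and 200 CPM in control, 163, 167 and 175 with JQ1, 176, 173 and 164 with I-BET151 and 127, 123 and 126 with ITF2357. All treated libraries were below the control. It was 1.59-fold lower with ITF2357 (-0.67 ± 0.03, SE, adjusted p = 5.89e-19), the only one of the 39 genes to change by 1.5-fold there, and fell by 0.25 ± 0.03 with JQ1 and 0.22 ± 0.03 with I-BET151.

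Kdm4a, which removes the trimethyl marks on lysines 9 and 36, was at 118, 121 and 123 CPM in control, 99.2, 93.8 and 96.4 with JQ1, 98.1, 99 and 97.1 with I-BET151 and 83.8, 82.6 and 86.5 with ITF2357. It fell by 0.52 ± 0.03 with ITF2357 (adjusted p = 4.57e-15), 0.32 ± 0.03 with JQ1 and 0.30 ± 0.03 with I-BET151, and no treated library overlapped the control. The JQ1 and I-BET151 libraries overlapped each other.

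Kdm3a, which acts on the mono- and dimethyl marks of lysine 9, rose with the BET inhibitors and fell with ITF2357. It stood at 127, 131 and 127 CPM in control, 152, 145 and 151 with JQ1, 154, 154 and 155 with I-BET151 and 107, 110 and 104 with ITF2357. The changes were 0.22 ± 0.03 (log2, SE, adjusted p = 1.14e-06), 0.26 ± 0.03 (adjusted p = 5.4e-09) and -0.27 ± 0.03 (adjusted p = 7.65e-09). No library of a treated group overlapped the control.

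Kdm5a and Kdm5b encode lysine 4 demethylases. Kdm5a stood at 218, 215 and 211 CPM in control, 225, 231 and 231 with JQ1, 264, 256 and 268 with I-BET151 and 189, 187 and 178 with ITF2357. It rose by 0.29 ± 0.03 (log2, SE) with I-BET151, fell by 0.22 ± 0.03 with ITF2357 and rose by 0.09 ± 0.03 with JQ1, where the call was lost without control library 3 or JQ1 library 3 (adjusted p 0.0789 and 0.0623). Kdm5b was at 248, 248 and 238 CPM in control, 248, 241 and 249 with JQ1, 237, 237 and 238 with I-BET151 and 189, 190 and 186 with ITF2357. It fell by 0.38 ± 0.03 with ITF2357 and passed with neither BET inhibitor in the main fit, although upper quartile factors called it lower with I-BET151 (adjusted p = 0.0264). The ratio of Kdm5a to Kdm5b per length was 1.03 ± 0.0119 (SD, n = 3) in control and 1.29 ± 0.0283 with I-BET151.

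Kdm2a and Kdm2b, for demethylases of lysine 36 that bind unmethylated CpG islands, changed little. Kdm2a stood at 300, 320 and 316 CPM in control, 328, 320 and 315 with JQ1, 347, 337 and 326 with I-BET151 and 313, 298 and 314 with ITF2357. Its rise of 0.11 ± 0.03 with I-BET151 reversed to -0.05 with library totals. Kdm2b was at 37.3, 39.4 and 37.7 CPM in control, 36.3, 36.2 and 39.7 with JQ1, 38.6, 41.9 and 42.3 with I-BET151 and 41.7, 38.6 and 42.7 with ITF2357, and passed with no compound in the main fit. It was called higher with I-BET151 without I-BET151 library 1 (adjusted p = 0.0357) and with ITF2357 without ITF2357 library 2 (adjusted p = 0.0288). Kdm1a, the LSD1 gene, had group means from 97.3 to 105 CPM and also passed with none in the main fit. Library totals called Kdm1a lower with I-BET151 (adjusted p = 5.14e-05), and the fit without ITF2357 library 3 called it higher with ITF2357 (adjusted p = 0.0221). With I-BET151 3 of the 8 demethylase genes rose and 2 fell (2 and 4 with library totals), and with JQ1 2 rose and 2 fell. Among 15 other demethylase genes 6 rose and 6 fell with I-BET151, 2 rose and 7 fell with ITF2357, and 1 rose and 4 fell with JQ1. Hr, a relative of Kdm3a, fell by 0.76 ± 0.15 with I-BET151 and rose by 1.24 ± 0.12 with ITF2357. Kdm1b, the paralog of Kdm1a, fell by 0.42 ± 0.06 with ITF2357 and by 0.24 ± 0.06 with JQ1.

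Sirtuins are deacetylases that need NAD and are not targets of the hydroxamate ITF2357. In control, Sirt1 had the lowest level per length of the 39 genes. It stood at 15.7, 13.7 and 12.3 CPM in control, 14.5, 11.8 and 13.5 with JQ1, 19.7, 22.5 and 22.7 with I-BET151 and 11, 12.9 and 12.6 with ITF2357. The I-BET151 libraries were above all others, a 1.56-fold rise (0.64 ± 0.09, SE, adjusted p = 2.05e-07). The ITF2357 change did not pass in the main fit (adjusted p = 0.0765) and passed with library totals (adjusted p = 0.0471).

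Sirt6 was at 19.4, 19.7 and 19.5 CPM in control, 16.8, 17.6 and 14.4 with JQ1, 13.6, 13.4 and 15.7 with I-BET151 and 16.3, 14.9 and 19.2 with ITF2357. It fell by 0.46 ± 0.09 (log2, SE, adjusted p = 4.48e-05) with I-BET151. The falls of 0.27 ± 0.09 with JQ1 and 0.21 ± 0.09 with ITF2357 depended on single libraries. The first was lost without control library 2 or 3 or JQ1 library 3 (adjusted p from 0.0552 to 0.171), and the second without any 1 of the 3 control libraries or without ITF2357 library 1 or 2 (adjusted p from 0.0651 to 0.179). Of 7 other genes of sirtuins and NAD supply 1 rose and 4 fell with I-BET151, 1 rose and 4 fell with ITF2357, and 0 rose and 2 fell with JQ1. Nampt, the rate-limiting gene of NAD salvage, fell by 0.48 ± 0.05 with ITF2357.

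The genes of the compounds' own targets were measured beside these enzymes. Brd2, which encodes a BET protein, rose by 1.16 ± 0.03 with I-BET151 (258 to 575 CPM) and by 0.22 ± 0.03 with ITF2357. Of 11 histone deacetylase genes 4 rose and 2 fell with I-BET151, 2 rose and 5 fell with ITF2357, and 1 rose and 1 fell with JQ1. Hdac5 rose by 0.92 ± 0.05 with I-BET151, and Hdac1 rose by 0.38 ± 0.05 with ITF2357.

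Across the comparisons against control, which share the same 3 control libraries, 14 of the 39 genes passed with all 3 compounds. In 8 of these the direction was the same: Kat2a, Nsd2, Kdm4a, Kdm6b and Sirt6 were lower, and Kat2b, Kat6b and Kmt2c were higher. Not all of these calls held when a single library was left out. Lost in that way were calls of Kat2a and Nsd2 with ITF2357, of Kat6b with JQ1 and of Sirt6 with both. In 10 genes the calls of at least 2 compounds were opposite, namely Dnmt1, Ezh1, Kat6a, Kdm3a, Kdm5a, Kmt2a, Nsd3, Setd1b, Tet3 and Uhrf1, of which Kmt2a, Nsd3 and Tet3 reversed with I-BET151 under library totals. Ezh1 was not called with I-BET151 under library totals (adjusted p = 0.716), so its calls were not opposite there. The 4 genes Eed, Kdm1a, Kdm2b and Setd1a passed with no compound in the main fit. Kdm1a, Kdm2b and Setd1a did pass in some fits with a single library left out. Such overlaps between compounds were not counted over all genes. Whether they are particular to these 39 genes was therefore not tested.

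The BET inhibitors, given at the same dose and for the same time, differed at 28 of the 39 genes (22 higher and 6 lower with I-BET151 than with JQ1, 71.8%), against 60.4% of all genes (29.8% higher and 30.7% lower), by edgeR's test adjusted over all genes. Under library totals the split was 13 higher and 19 lower, and under upper quartile factors 15 and 11. The largest differences were a Uhrf1 level 3.40-fold lower with I-BET151 (log2 difference -1.76 ± 0.06, SE, adjusted p = 4.29e-23) and a Kat2b level 1.91-fold higher (0.94 ± 0.04, adjusted p = 8.89e-20). Kmt2c differed by 0.77 ± 0.03, Sirt1 by 0.70 ± 0.09, Kmt2e by 0.59 ± 0.03 and Setd1b by 0.57 ± 0.04, all higher with I-BET151 in 3 of 3 libraries. Lower with I-BET151 were Dnmt1 by -0.72 ± 0.04, Kat2a by -0.46 ± 0.05, Nsd2 by -0.26 ± 0.03 and Dnmt3a by -0.15 ± 0.03. The other 11 genes did not pass. Their 95% intervals were narrow for Tet2 (-0.06 to 0.04 on the log2 scale), Kdm6b (-0.04 to 0.08), Kdm4a (-0.05 to 0.09) and Kdm3a (-0.02 to 0.11), and wider for Sirt6 (-0.38 to -0.00) and Setd1a (-0.22 to 0.01).

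The deacetylase inhibitor differed from JQ1 at 24 genes (7 higher and 17 lower, 61.5%), against 48.6% of all genes (25.4% higher and 23.2% lower), and from I-BET151 at 34 genes (8 higher and 26 lower, 87.2%), against 62.8% (31.9% higher and 30.9% lower). Against JQ1, Uhrf1 (0.56 ± 0.05, log2 difference ± SE), Ezh2 (0.40 ± 0.03) and Dnmt1 (0.38 ± 0.03) were higher with ITF2357, and Tet2 (-0.61 ± 0.03), Kdm3a (-0.49 ± 0.03) and Kdm6b (-0.43 ± 0.03) were lower. Against I-BET151, Uhrf1 was 4.99-fold higher with ITF2357 (2.32 ± 0.06, adjusted p = 8.55e-27) and Dnmt1 2.14-fold higher (1.1 ± 0.04, adjusted p = 3.28e-23). Sirt1 (-0.84 ± 0.09), Kmt2c (-0.76 ± 0.03), Kmt2e (-0.71 ± 0.03), Kat2b (-0.62 ± 0.04) and Tet2 (-0.60 ± 0.03) were lower with ITF2357 than with I-BET151.

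The counts carry limits that bear on single genes. Exons of 16 of the 39 genes overlap exons of a gene on the opposite strand in GENCODE M21, and the strand setting of the counting is unknown here. For Kat5, Kat8, Kdm5a, Kmt2e, Nsd2, Eed and Kdm2b at least 1 such partner is itself in the table (Rnaseh2c, Prss8, Ccdc77, Srpk2, Nelfa and E230029C05Rik in that order, and both A930024E05Rik and Rnf34 for Kdm2b), and reads of both strands cannot be told apart without it. In 3 of the 39, exons overlap those of another gene on the same strand.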

How the data were processed

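RNA-seq libraries from 12 KPC cell samples were analysed from 1 table. The authors deposited raw counts per gene and library, log2 CPM and log2 RPKM values, log2 fold changes and p-values with false discovery rates. The submitters' processing notes name build mm10 and the tools bcl2fastq, featureCounts (Subread 2.0.1), edgeR 3.38.4 and STAR 2.7.2a. The sources used here give neither the strand setting nor the annotation release. Identifiers of 17170 of 17340 genes (99.0%) matched GENCODE M21, which gave the positions. The lowest total of a gene was 51 counts. Columns of per-sample values without a sample numbered 0.

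The deposited counts were fitted by edgeR 4.0.16 under R 4.3.3. All 12 libraries entered 1 quasi-likelihood fit with TMM factors and no covariates, filterByExpr removed 0 genes, and Benjamini-Hochberg adjustment ran over all 17340 genes. A gene was called at an adjusted p under 0.05. Standard errors follow from the fitted fold change and its F value. CPM uses TMM-scaled library sizes, and RPKM divides it by the deposited gene length. The common biological coefficient of variation was 3.37%. The authors' deposited table has 19 of the 39 genes past that threshold for JQ1, 28 for I-BET151 and 27 for ITF2357, each in the direction found here. Deposited log2 values and p-values served only for such checks. Same-numbered libraries were not treated as pairs.

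The 39 genes and the related lists were chosen with earlier results of these data known. Values in every library are given for the 4 largest rises and falls per comparison against control among called genes whose mean log2 CPM was 2 or more, with no overlap with control, for genes called in opposite directions by 2 compounds, and for 10 paralog pairs. From each related list up to 2 rises and 2 falls per comparison could be named, and those shown are examples; some that the rule names are not reported here. Fold changes of genes that did not pass are not printed: their levels are given, and they ranged from -0.11 to 0.08 for JQ1, -0.12 to 0.12 for I-BET151 and -0.20 to 0.11 for ITF2357. Promoters are from RefSeq (GRCm38.p6). The count test was tested on simulated data. Alternatives were other scalings, filters, DESeq2 1.42.0, fits of 2 groups, a replicate block, each library left out in turn and a 1.5-fold minimum.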

Additional observations from a re-analysis of the deposited data

How the results depend on the processing

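The counts of changed genes and of changed chromatin enzyme genes stayed within 1.5 times of those reported under other scalings, filters, DESeq2, fits of 2 groups, the replicate block and each library left out. They moved when a change of at least 1.5-fold was also required. In the order JQ1, I-BET151 and ITF2357 against control, I-BET151 against JQ1, ITF2357 against JQ1 and ITF2357 against I-BET151, this left 409, 5190, 3240, 4519, 2415 and 4662 genes, and 0, 8, 1, 6, 1 and 8 of the 39. Leaving out 1 library gave 16 to 19 of the 39 with JQ1, 27 to 31 with I-BET151 and 24 to 28 with ITF2357.

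Of 103 fold changes of these genes, recomputed 2060 times, 2012 values kept direction and call, 44 lost the call and 4 reversed. The reversals were those of I-BET151 against control under library totals, for Kdm2a (-0.0508), Kmt2a (-0.0561), Nsd3 (-0.0533) and Tet3 (-0.0866). Library totals lower every fold change of that comparison by construction, by -0.161 in the median. The named genes of related lists, an alternative chosen after seeing the data, were likewise called in the main fit. Of their 2197 values 2093 kept direction and call, 103 lost the call and 1 reversed. The reversal was that of Kmt2b with I-BET151 under library totals (-0.0587). Of the calls against control, 15 of 19 with JQ1, 26 of 28 with I-BET151 and 21 of 27 with ITF2357 held whichever single library was left out.

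Among all genes called with I-BET151, 48.4% were higher under TMM and 33% under library totals. For I-BET151 against JQ1 these shares were 49.3% and 31.1%, and for ITF2357 against I-BET151 50.8% and 65.5%. Among the 39 genes the share of higher calls for ITF2357 against JQ1 was 29.2% under TMM and 16% under upper quartile factors, and for ITF2357 against I-BET151 23.5% under TMM and 35.3% under library totals. For ITF2357 against JQ1 over all genes it was 52.3% under TMM and 41.8% under upper quartile factors.

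The labels do not say whether equal replicate numbers mark a shared culture, batch or day. For 18 same-numbered pairs deviations correlated with r from -0.0906 to 0.0174, and for 36 pairs of different number from -0.058 to 0.089. With 3 libraries per group such values cannot tell whether same-numbered libraries shared more than a number. With the replicate block 4141, 10865, 9247, 10361, 8251 and 10764 genes were called, and 19, 28, 27, 27, 24 and 34 of the 39, in the order above. Depth limits the low genes most, since Sirt1, Kat8 and Sirt6 had fewer than 1500 counts per group and the largest standard errors.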
